A study of Mus musculus with 5 samples.

Results

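The E proteins are basic helix-loop-helix transcription factors that bind DNA as dimers, and the Id proteins are their natural inhibitors. Transcripts of the 3 E protein genes Tcf3, Tcf4 and Tcf12 and of the 3 Id genes Id1, Id2 and Id3 were examined in Lin-cKit+Sca1- (KL) bone marrow cells, a sorted population that holds the committed myeloid progenitors. These 6 genes, taken by name and matched through their gene identifiers, were 6 of the 52550 genes in the table and all 6 were among the 11766 genes with enough counts to be tested. BcorΔE9-10 mice (n = 3 libraries) carried a floxed Bcor allele (Bcorfl/y) and scl-Cre-ERT, and BcorWT mice (n = 2 libraries) carried, per the labels, scl-Cre-ERT with a wild-type allele (Bcorwt/y), although the methods allow for controls with either transgene alone. Both groups were male and received tamoxifen by intraperitoneal injection at 1 mg per day for 5 days when 3 to 6 months old, and KL cells were sorted 20 weeks later. The Cre is driven by a stem cell enhancer of the Scl (Tal1) gene, so the allele is recombined in haematopoietic stem cells and inherited by their progeny, and cells that escaped recombination would remain in the sort. Removal of Bcor exons 9 and 10 shifts the reading frame and leaves a truncated protein. The sources do not say in words that each library came from a separate animal, so the p-values below measure the spread between these libraries.

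E proteins pair through the helix-loop-helix and touch DNA at E-box sites through the adjoining basic region. An Id protein has the helix-loop-helix but no basic region, so an E protein held by an Id protein cannot bind DNA. In blood, E proteins are known for driving the B and T lymphoid programmes and, through Tcf4, the plasmacytoid dendritic cell, while Id2 is known for its role in natural killer, innate lymphoid and dendritic cells and Id1 and Id3 as targets of BMP signalling. With Tal1, Lmo2 and Ldb1, E proteins also form a DNA-binding complex of stem cells and erythroid and megakaryocytic precursors.

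The surface that joins the partners can be seen in the coding sequence. The stretches of 120 bases in which the 3 Id genes were most alike lie in the helix-loop-helix region and are shown because this is the part that an Id protein uses to hold an E protein. They were read from the GENCODE M21 transcripts of mouse build mm10, 5′ to 3′ on the coding strand. Capitals mark the 77 bases that all 3 genes share.
Id1: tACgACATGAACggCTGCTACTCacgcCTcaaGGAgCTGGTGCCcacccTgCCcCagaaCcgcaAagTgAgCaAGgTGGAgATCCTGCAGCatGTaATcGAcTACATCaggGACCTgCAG
Id2: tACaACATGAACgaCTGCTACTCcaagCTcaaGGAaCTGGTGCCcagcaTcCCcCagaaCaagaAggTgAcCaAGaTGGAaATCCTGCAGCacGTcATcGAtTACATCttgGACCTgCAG
Id3: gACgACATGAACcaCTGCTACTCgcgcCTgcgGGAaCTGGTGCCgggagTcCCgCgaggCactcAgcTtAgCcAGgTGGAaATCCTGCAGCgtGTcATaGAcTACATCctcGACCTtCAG
The Id1 stretch lies in a coding exon at chr2:152736518-152736637 (plus strand), that of Id2 at chr12:25095783-25095902 (minus strand) and that of Id3 at chr4:136144002-136144121 (plus strand). Id1 and Id2 were identical at 81.7% of these bases, Id1 and Id3 at 70.8% and Id2 and Id3 at 71.7%. Over the 40 codons, Id1 and Id2 encode the same residue at 31, Id1 and Id3 at 27 and Id2 and Id3 at 24.

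The same search in the E protein genes Tcf3 and Tcf12 found a stretch in the later part of their basic helix-loop-helix region. It is shown because the 2 genes encode an identical surface there with different codons. Capitals mark the 95 bases that both share.
Tcf3: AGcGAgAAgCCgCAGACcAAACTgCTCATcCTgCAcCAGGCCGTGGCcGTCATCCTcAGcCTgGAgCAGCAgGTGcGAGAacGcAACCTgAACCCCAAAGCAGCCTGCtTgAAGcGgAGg
Tcf12: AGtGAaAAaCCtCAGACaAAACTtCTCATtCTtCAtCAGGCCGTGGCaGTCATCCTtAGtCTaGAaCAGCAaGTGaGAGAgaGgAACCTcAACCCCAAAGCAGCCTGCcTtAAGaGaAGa
The Tcf3 stretch is spliced from exons between chr10:80410234-80412905 and that of Tcf12 from exons between chr9:71849885-71856383, both on the minus strand of mm10. The sequences were identical at 79.2% of bases. All 22 of the 40 codons that differ encode the same residue in both genes, so a read from either gene can be told apart by its bases where the proteins cannot. The libraries read only the 3′ end of each transcript, where no 30-base word of Tcf3, Id1, Id2 or Id3 occurred in another gene, and 7.0% of those of Tcf12 did.

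Total counts ranged from 5998924 to 8303999 per library. Levels are given as counts per 1000000 (CPM) scaled by TMM, a between-library factor, and since a 3′ library yields about 1 tag per transcript end they were not divided by transcript length. Bcor itself had 21.6 to 27.4 CPM in the BcorΔE9-10 and 11.8 to 16.2 CPM in the BcorWT libraries. It was called higher in BcorΔE9-10 cells (log2 fold change 0.78, limma adjusted p = 0.0313), but its tags lie outside the deleted exons and do not check the deletion. Kit, the receptor used in the sort, was detected in every library and was higher in BcorΔE9-10 cells (log2 fold change 1.43, limma adjusted p = 9.82e-05). The sort also carried transcripts of maturing cells, and these moved with the groups. The 9 mature neutrophil markers summed to 148200 to 172200 CPM in BcorΔE9-10 and to 214400 to 226500 CPM in BcorWT libraries, with 6 of 9 lower, and 6 of 8 tested basophil, mast cell and eosinophil markers were lower (398 to 574 against 996 to 1290 CPM in sum over all 9), where 4.09% of all genes tested were called lower. In bulk RNA, fewer cells of a type and less RNA per cell cannot be told apart, and the part of these shifts in the results below was not tested.

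None of the 6 genes passed the test of BcorΔE9-10 against BcorWT cells applied to all genes, and Id2 passed it, lower in BcorΔE9-10 cells, in 6 of 10 fits that corrected for the base composition of transcripts. The genotype effect was fitted with limma on voom values and adjusted over the 11766 genes, and a gene is said to be called, higher or lower, when its adjusted p is under 0.05. Of the 6 genes, 0 were called by limma, where 10.1% of all genes tested were (6.02% higher and 4.09% lower), and 0 were called by edgeR, where 11.2% were, or by DESeq2. Scaling by total counts alone, which moved the median of all genes to 0.149 on the log2 scale, gave 1210 higher and 197 lower genes in place of 708 and 481 and called 0 of the 6. At an unadjusted p under 0.05, 0 of 6 passed in limma, against 25.3% of all genes. Tcf4 was the 1 gene of the 6 whose groups did not overlap, with all BcorΔE9-10 values above both BcorWT values, an arrangement found in this direction in 22.6% of all genes tested and in the opposite direction in 20.3%. A p that misses the threshold does not show that levels were equal, so each fold change is given below with its 95% interval.

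**Figure D1:**
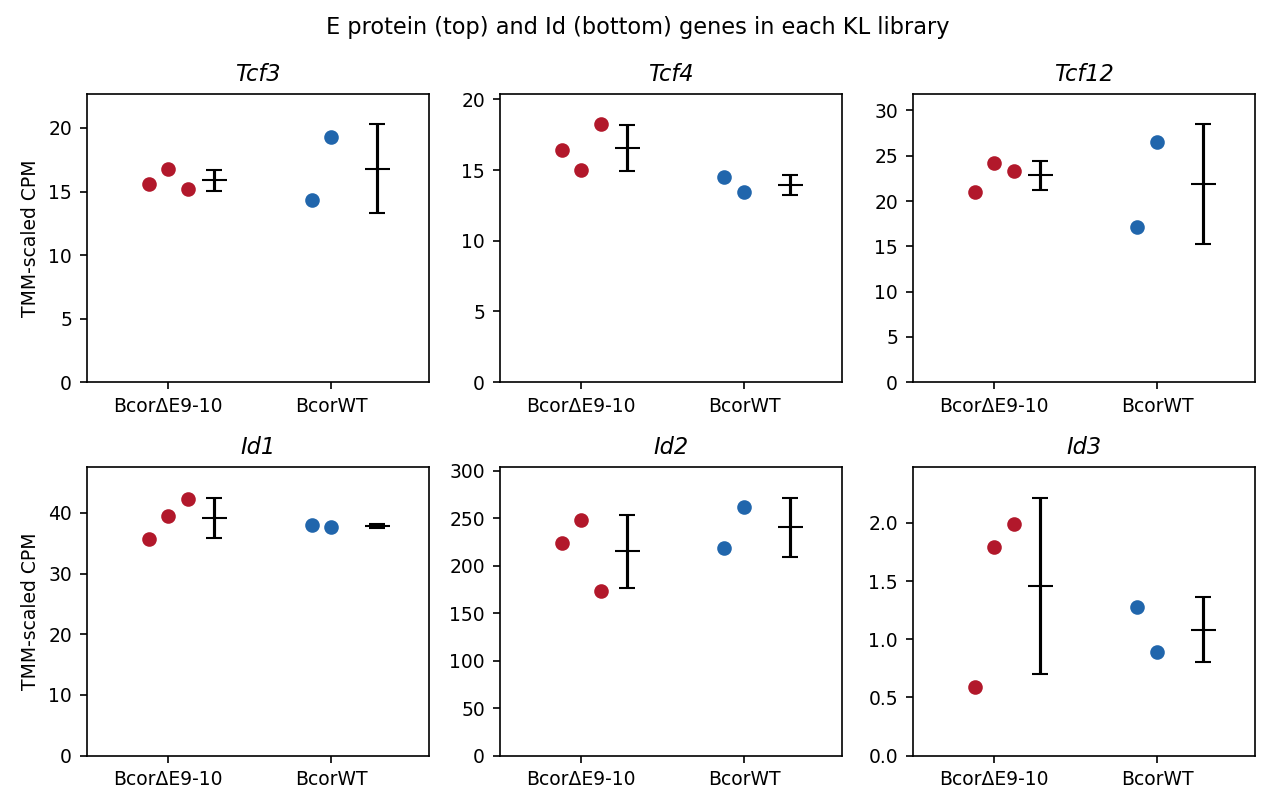
TMM-scaled CPM (vertical axis, from 0, a separate scale for each gene) of Tcf3, Tcf4, Tcf12, Id1, Id2 and Id3 in each KL library. Points are libraries (3 BcorΔE9-10, 2 BcorWT), and the horizontal mark with its bar is the group mean ± SD. The groups overlap for every gene but Tcf4, whose BcorΔE9-10 libraries sit between 15.01 and 18.2 CPM and BcorWT libraries between 13.5 and 14.5 CPM.

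The 3 E protein genes were present at similar, moderate levels, near the middle of the genes tested. Tcf12 (chr9:71842688-72111871, minus strand), which encodes the E protein HEB, had 21.04, 24.2 and 23.3 CPM in BcorΔE9-10 cells and 17.2 and 26.5 CPM in BcorWT cells. The BcorWT values enclosed those of all 3 BcorΔE9-10 libraries. The means were 22.8 ± 1.602 CPM (SD, n = 3) and 21.9 ± 6.61 CPM (SD, n = 2) (log2 fold change 0.09, SE 0.206, 95% interval -0.34 to 0.53, limma adjusted p = 0.827).

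Tcf3 (chr10:80409514-80433647, minus strand), the E protein gene most associated with the start of B cell development, had 15.6, 16.8 and 15.2 CPM in BcorΔE9-10 cells and 14.3 and 19.3 CPM in BcorWT cells. Here too the BcorWT pair enclosed the other group. Its log2 fold change was -0.07 (SE 0.211, 95% interval -0.52 to 0.37, limma adjusted p = 0.872), between means of 15.9 ± 0.839 (SD, n = 3) and 16.8 ± 3.48 CPM (SD, n = 2). For both Tcf3 and Tcf12 the BcorWT libraries lay further apart than counting alone gives, with a coefficient of variation of 20.7% and 30.2% where sampling of the counts gives 9.36% and 8.28%.

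Tcf4 (chromosome 18), the E protein gene that specifies plasmacytoid dendritic cells, had 16.4, 15.01 and 18.2 CPM in BcorΔE9-10 cells and 14.5 and 13.5 CPM in BcorWT cells. The gap between the lowest BcorΔE9-10 and the highest BcorWT library was narrow, and these 2 libraries held 92 and 102 counts of the gene. The means were 16.6 ± 1.61 (SD, n = 3) and 14.0 ± 0.708 CPM (SD, n = 2) (log2 fold change 0.25, SE 0.212, 95% interval -0.20 to 0.70, limma adjusted p = 0.495). Its transcript end is poor in G and C (32.3% of the last 300 bases), and genes within 2 percentage points of that GC content had a median log2 fold change of 0.17. Tcf4 itself was at 0.036 after GC correction on these bases (limma adjusted p = 0.942). With GC content as a mean over its coding transcripts (47.9%), it was at 0.30 (limma adjusted p = 0.418).

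Among the inhibitors, Id2 took most of the transcripts and Id3 was close to the limit of detection. Id2 (chr12:25093799-25097140, minus strand) stood above 94.5% of the genes tested in its mean level. It had 224, 249 and 173 CPM in BcorΔE9-10 cells and 219 and 262 CPM in BcorWT cells. BcorΔE9-10 library 3 was the lowest of the 5, and the other 4 libraries were interleaved. The means were 215 ± 38.4 (SD, n = 3) and 241 ± 31.0 CPM (SD, n = 2) (log2 fold change -0.18, SE 0.141, 95% interval -0.47 to 0.12, limma adjusted p = 0.466). With 1484 to 1896 counts per library, counting error was small (2.48% and 2.46%) beside the spread between libraries (17.8% and 12.9%).

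The call for Id2 depended on how base composition was handled. The last 300 bases of its transcript are 27.7% G and C, and 2.7% of the genes tested had a lower value. Across all genes the fold change declined as the GC content of the transcript end rose. In 5 bins of GC content, the genes of the lowest bin (15.3 to 35.3%) had a median log2 fold change of 0.22 and those of the highest (50.9 to 78.0%) one of -0.12. The 593 genes within 2 percentage points of Id2 had a median of 0.35. With the trend removed from each library, Id2 was lower in BcorΔE9-10 cells (log2 fold change -0.51, limma adjusted p = 0.0267). That correction and the one with a replicate block were planned, and 8 further forms were added after seeing the data. Of 10 fits that applied such a correction in some form, 6 called Id2 lower, with adjusted p-values from 0.0162 to 0.142 and log2 fold changes from -0.63 to -0.35, and of 13 alternatives without it 0 did. The corrected fits that left out BcorΔE9-10 library 3 (-0.35, adjusted p = 0.142) or BcorWT library 2 (-0.40, adjusted p = 0.114) did not call it, nor did the fit that took GC content as a mean over the coding transcripts of the gene (33.7%, -0.44, adjusted p = 0.0566) or the fit with a replicate block (-0.36, adjusted p = 0.0605). In the replicate block, BcorΔE9-10 library 3 has no same-numbered BcorWT library, so the genotype estimate does not draw on it. The cause of the GC trend was not tested.

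**Figure D2:**
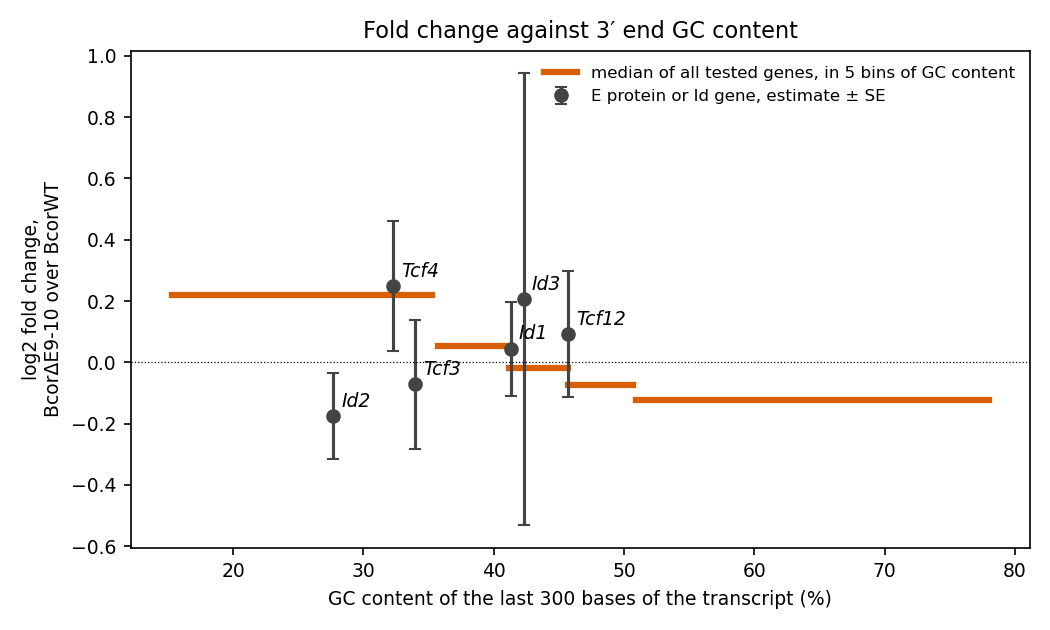
Log2 fold change of BcorΔE9-10 over BcorWT (vertical axis) against the percentage of G and C in the last 300 transcript bases (horizontal axis). Points with bars are the E protein and Id genes with the SE of the limma fit, and orange lines span 5 bins of all tested genes with a known GC content at their median fold change, from 0.22 in the lowest bin to -0.12 in the highest. Id2, at 27.7%, lies below the line of its bin, and Tcf4, at 32.3%, lies close to it.

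Id1 (chr2:152736251-152737410, plus strand), a target of BMP signalling, had 35.7, 39.5 and 42.3 CPM in BcorΔE9-10 cells and 38.1 and 37.6 CPM in BcorWT cells. Both BcorWT values fell inside the BcorΔE9-10 range. The means were 39.2 ± 3.32 (SD, n = 3) and 37.9 ± 0.298 CPM (SD, n = 2) (log2 fold change 0.04, SE 0.153, 95% interval -0.28 to 0.37, limma adjusted p = 0.894). The interval corresponds to a fold of 0.824 to 1.29.

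Id3 (chr4:136143497-136145755, plus strand), the Id gene most associated with lymphoid receptor signalling, was counted 5, 11 and 17 times in BcorΔE9-10 cells and 9 and 6 times in BcorWT cells. These correspond to 0.591, 1.80 and 1.99 CPM and to 1.28 and 0.889 CPM, and the groups overlapped. The log2 fold change of 0.21 had an SE of 0.737 and a 95% interval from -1.35 to 1.77 (limma adjusted p = 0.899), which corresponds to a fold of 0.391 to 3.4 and so does not exclude a 2-fold change in either direction. The fourth Id gene, Id4, had 1 count in BcorWT library 1 and 0 in the other 4 libraries and was not tested. A count of 0 allows up to 0.351 to 0.490 CPM, from the 3 counts that it cannot exclude in each library, and covers counting error only.

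On the scale of transcript ends, the order of levels was Id2, Id1, Tcf12, then Tcf3 and Tcf4, then Id3, in all 5 libraries. Tcf3 and Tcf4 changed places, with Tcf4 above Tcf3 in BcorΔE9-10 libraries 1 and 3 and BcorWT library 1 and below it in the other 2, so this pair did not differ beyond its spread. Id2 exceeded Id1 by 4.1 to 6.97 times, and Id1 exceeded Tcf12 by 1.42 to 2.21 times. Id2 made up 79.7 to 87.2% of the summed Id transcripts and Id1 12.5 to 19.4%.

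The balance of inhibitor to E protein transcripts overlapped between the groups. The summed level of Id1, Id2 and Id3 was 260, 290 and 218 CPM in BcorΔE9-10 and 258 and 301 CPM in BcorWT libraries. The summed level of Tcf3, Tcf4 and Tcf12 was 53.1, 56.0 and 56.7 CPM against 46.0 and 59.3 CPM. Id transcripts thus outnumbered E protein transcripts by 4.91, 5.18 and 3.84 times in BcorΔE9-10 and by 5.61 and 5.08 times in BcorWT libraries, with means of 4.64 ± 0.708 (SD, n = 3) and 5.34 ± 0.373 (SD, n = 2). BcorΔE9-10 library 3, the library with the least Id2, was lowest. These are ratios of transcripts and not of proteins, and no test was made of them.

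**Figure D3:**
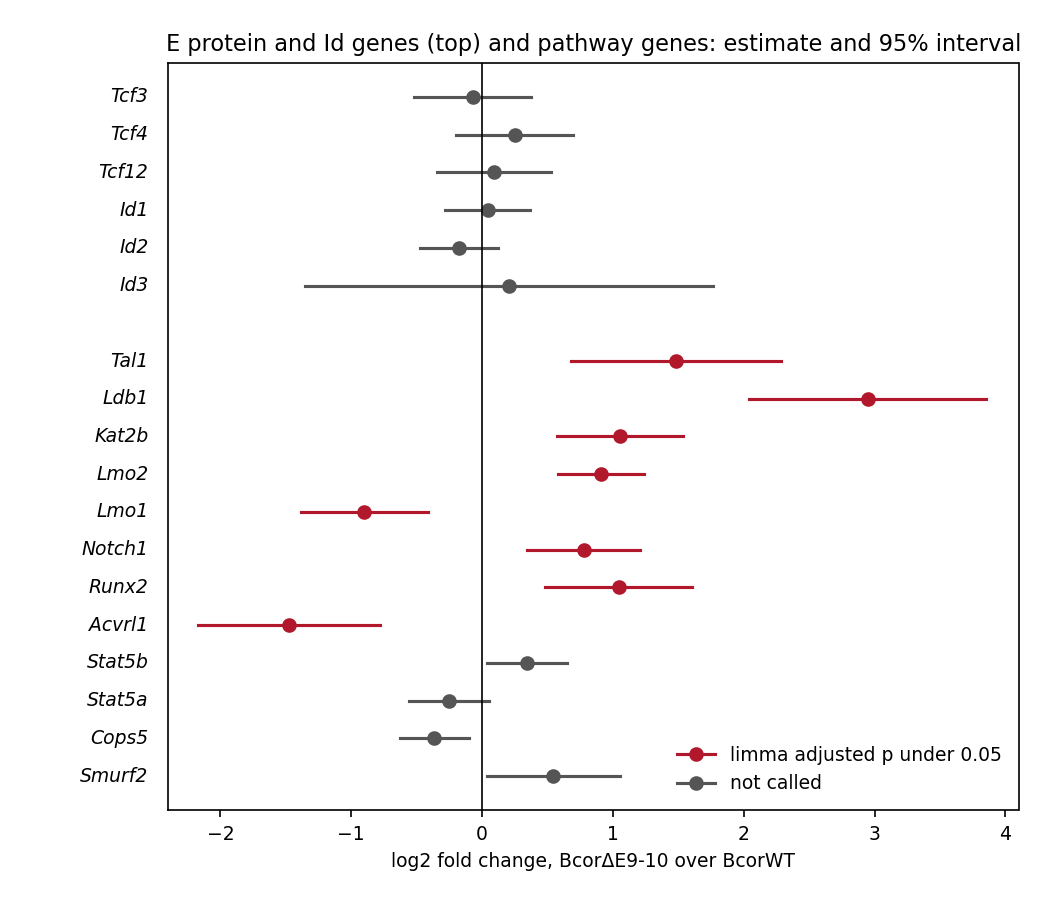
Log2 fold change of BcorΔE9-10 over BcorWT (horizontal axis) with the 95% interval of the limma fit for the 6 E protein and Id genes (top) and the pathway genes named in the text (below). Red marks an adjusted p under 0.05. All 6 intervals at the top include 0, that of Id3 being the widest (-1.35 to 1.77), while those of Tal1, Ldb1, Kat2b, Lmo2, Notch1 and Runx2 lie above 0 and those of Lmo1 and Acvrl1 below it. Those of Stat5b and Smurf2 (above 0) and Cops5 (below) also leave out 0, although these genes were not called.

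The partners of the E proteins were examined next. Of the bHLH genes whose products dimerise with E proteins, 2 of 10 had enough counts to be tested and 1 was called, where 10.1% of all genes tested were. Tal1, the stem cell and erythroid partner, rose from 5.25 and 2.37 CPM in the BcorWT libraries to 9.22, 9.95 and 11.2 CPM in the BcorΔE9-10 libraries. The log2 fold change was 1.48 with an SE of 0.380 (limma adjusted p = 0.0202), and the call was lost without BcorΔE9-10 library 3 (adjusted p = 0.0638) and without BcorWT library 2, where the value was 0.94 (adjusted p = 0.148). Lyl1, a close relative of Tal1, was not called, with 109, 106 and 102 against 126 and 113 CPM (log2 fold change -0.18, limma adjusted p = 0.371). The median of these 2 genes was 0.65, and 0.35 without BcorWT library 2. Nhlh1, Msc and Atoh1 had 0 counts in every library.

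Of 14 cofactor genes of E protein complexes, 12 were tested, 3 were higher and 1 was lower, where 6.02% and 4.09% of all genes tested were. The median log2 fold change of the 12 was 0.24, where that of all genes tested was 0.00434. The LIM-only protein Lmo2, which bridges Tal1 and E protein dimers to Ldb1, had 53.3, 55.8 and 55.3 CPM in BcorΔE9-10 and 27.1 and 31.4 CPM in BcorWT libraries (log2 fold change 0.91, SE 0.155, limma adjusted p = 0.00163). Ldb1, the adaptor that joins such complexes in pairs, had 16.4, 21.7 and 22.0 CPM against 1.85 and 3.41 CPM (log2 fold change 2.95, SE 0.429, limma adjusted p = 4.55e-04). Ldb1 shares exonic positions with Pprc1 on the other strand, and it is not known whether strand was used in counting, so its tags cannot be separated from those of Pprc1. Kat2b, an acetyltransferase, was higher by 1.05 (SE 0.228, limma adjusted p = 0.00779), with 19.1 to 22.2 CPM against 9.48 and 9.94 CPM. The study chose its genes of interest, Tal1, Lmo2, Ldb1, Lmo1, Notch1 and Runx2 among them, from these same libraries, so no direction given here for a called gene is independent evidence.

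Lmo1, a relative of Lmo2, moved the other way, with 12.2, 9.30 and 15.5 CPM in BcorΔE9-10 and 20.3 and 26.4 CPM in BcorWT libraries. Its log2 fold change was -0.90 with an SE of 0.229 (limma adjusted p = 0.0197). Its call was lost without BcorΔE9-10 library 1 or 2 (adjusted p = 0.0528 and 0.0721) and without BcorWT library 2 (adjusted p = 0.104). The remaining 8 tested cofactors were not called and all had positive log2 fold changes, from 0.03 for Lmo4 to 0.39 for Cbfa2t3, a corepressor of the ETO family that joins Tal1 complexes. The histone acetyltransferase genes Ep300 and Crebbp, coactivators of E proteins, had log2 fold changes of 0.07 and 0.20 (limma adjusted p = 0.833 and 0.539).

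Markers of erythroid cells, in which Tal1, Lmo2 and Ldb1 are active, were higher in part. The 9 erythroid markers summed to 42.2 to 157 CPM in BcorΔE9-10 and to 16.6 to 43.1 CPM in BcorWT libraries, ranges that met at one end. All 5 tested markers had positive log2 fold changes, with a median of 1.61. Limma called 1 of the 5, Car1, where it called 10.1% of all genes tested, and edgeR called Car1, Car2 and Hba-a1 (adjusted p = 0.00203, 0.0305 and 0.0365), where it called 11.2%. The 6 megakaryocyte markers summed to 43.9 to 69.5 CPM against 26.7 to 45.7 CPM, with 3 of 5 tested values positive, a median of 0.48 and 0 of 5 called by limma. None of these markers was at 0 in every library. The 8 stem cell markers summed to 13.95 to 16.97 CPM in BcorΔE9-10 and to 10.93 and 11.71 CPM in BcorWT libraries. Both tested ones, Hlf and Meis1, were positive, with a median of 0.467, and 0 were called by limma. Fgd5 of this list was at 0 in every library. The part of all these cells in the partner and cofactor results was not tested.

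**Figure D4:**
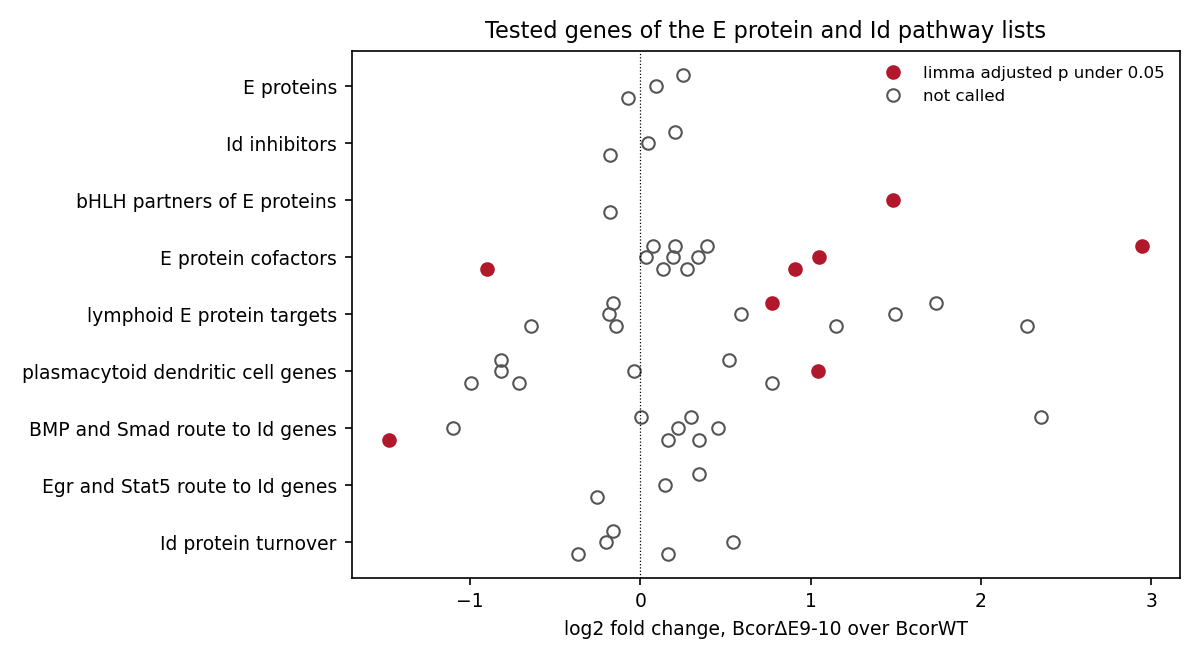
Log2 fold change of BcorΔE9-10 over BcorWT (horizontal axis) for each tested gene of the E protein and Id genes and of 7 pathway lists (rows). Filled red points are past an adjusted p of 0.05 in limma. Called genes appear in the partner, cofactor, lymphoid, plasmacytoid dendritic cell and BMP rows, and none in the E protein, Id, Egr and Stat5 or turnover rows.

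Genes that E proteins are known to activate in lymphoid and dendritic lineages were read out next. Of 16 lymphoid target genes, 10 were tested and 1 was called, a share near the 10.1% of all genes tested. Notch1, the receptor that directs T cell fate, had 22.8, 23.8 and 25.1 CPM in BcorΔE9-10 and 12.6 and 15.4 CPM in BcorWT libraries (log2 fold change 0.78, SE 0.203, limma adjusted p = 0.0227). The call was lost without BcorΔE9-10 library 2 (adjusted p = 0.0512), without library 3 (adjusted p = 0.0809) and without BcorWT library 1 (adjusted p = 0.189), and the gene overlaps Gm13568 and 0610009E02Rik on the other strand. The median of the 10 was 0.68, over values that for most of the list rest on few counts. Pax5, the B lineage commitment factor, had 15, 11 and 15 counts against 4 and 1 (limma adjusted p = 0.130), and Ebf1, which acts upstream of it, 5, 14 and 17 against 5 and 1 (limma adjusted p = 0.315). Cxcr4, the chemokine receptor that retains progenitors in marrow, was the one abundant gene of this list, with 208, 271 and 184 against 208 and 276 CPM. Rag1, Rag2 and Il7r were under the filter, with 0 to 7 counts in each library.

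The median of the lymphoid targets that passed the filter was 0.28 without BcorΔE9-10 library 2, 0.11 without BcorΔE9-10 library 3 and 0.21 without BcorWT library 2. B cell markers summed to 41.1 to 58.6 CPM in BcorΔE9-10 and 37.5 to 56.0 CPM in BcorWT libraries, most of it Ighm, the heavy chain gene of IgM (33.3 to 48.1 CPM). Of the 5 tested markers 0 were called and 4 were positive, with a median log2 fold change of 1.74. Pax5, Ebf1 and Cd79b, the negative one (-0.16), stand in both lists, as does Cd79a, which was not tested. Ms4a1, a defining B cell marker, was at 0 in every library. T and NK cell markers summed to 148 to 190 CPM against 194 to 202 CPM, most of it Nkg7, a gene of cytotoxic granules (122 to 164 against 183 and 184 CPM, not called, limma adjusted p = 0.138). Of the 6 tested markers 4 were positive, with a median of 0.70, and 1 was called, Il2rb, which was higher in BcorΔE9-10 cells, where 10.1% of all genes tested were called. Lineage-positive cells had been depleted before the sort, which also gated on Lin- cells, steps meant to remove mature B and T cells. The part of such cells in the lymphoid list was not tested.

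Of 13 plasmacytoid dendritic cell genes, the programme associated with Tcf4, 8 were tested and 1 was called, again near the 10.1% of all genes tested. Runx2, a transcription factor of that programme, had 13.9, 13.9 and 12.9 CPM in BcorΔE9-10 and 6.82 and 6.22 CPM in BcorWT libraries (log2 fold change 1.04, SE 0.267, limma adjusted p = 0.0202). After GC correction it was 0.81 (adjusted p = 0.0714), and it also lost its call without either BcorWT library (adjusted p = 0.0911 and 0.0805). With GC content as a mean over coding transcripts, Runx2 was at 1.09 and kept its call (limma adjusted p = 0.0167). It overlaps the antisense gene Runx2os1. Bcl11a and Zeb2, transcription factors used by many blood lineages, had log2 fold changes of 0.52 and 0.77 and were not called (limma adjusted p = 0.0869 and 0.0710). Zeb2 was called higher by edgeR (adjusted p = 0.0480), where 11.2% of all genes were called in either direction. Irf7, Tlr7, Bst2, Cox6a2 and Irf8 had negative values from -0.997 to -0.039 and were not called, and the median of the 8 was -0.38. It was -0.0056 without BcorΔE9-10 library 3 and -0.059 and -0.24 without BcorWT library 1 or 2. Tlr9 and Klk1 were at 0 in every library. Markers of the mature cell summed to 4.08 to 5.14 CPM in BcorΔE9-10 and 4.74 to 10.1 CPM in BcorWT libraries, and Siglech, which defines it, had 6, 0 and 13 counts against 2 and 0.

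The routes that control Id genes were examined last. Of 14 BMP receptor and Smad genes, 9 were tested, 0 were higher and 1 was lower, where 10.1% of all genes tested were called. Acvrl1, a type I receptor that signals to the Id genes through Smad1 and Smad5, had 8.04, 10.8 and 9.82 CPM in BcorΔE9-10 and 41.3 and 16.3 CPM in BcorWT libraries. Its log2 fold change was -1.47 with an SE of 0.328 (limma adjusted p = 0.00924), and -0.80 without BcorWT library 1, where the call was lost (adjusted p = 0.114). Endothelial and stromal markers, cells in which this receptor is best known, summed to 21.1 to 28.4 CPM in BcorΔE9-10 and 33.2 to 37.2 CPM in BcorWT libraries. Pecam1 accounted for most of that sum, Lepr was at 0 in every library, and Cdh5 and Kdr had 0 to 5 counts. Col1a1, a stromal collagen gene, had 4, 3 and 3 counts in BcorΔE9-10 cells and 33 and 6 in BcorWT cells, and its highest library, BcorWT library 1, was also the highest for Acvrl1. The part of such cells in Acvrl1 was not tested, and Acvrl1 overlaps Gm16031 on the other strand. The signal carriers Smad1 and Smad5 had log2 fold changes of 0.34 and 0.17 and were not called (limma adjusted p = 0.569 and 0.652), and the median of the 9 was 0.22, or 0.14 without BcorΔE9-10 library 3 and 0.038 without BcorWT library 2. The receptor genes Acvr2b (higher) and Bmpr1a (lower), singled out after their values were seen, did not overlap between groups. Nor did Acvrl1 (lower) and Eng (higher) of the tested genes. Such an arrangement was found higher in 22.6% and lower in 20.3% of all genes tested. Acvr2b had 23, 15 and 13 counts against 3 and 2 (log2 fold change 2.35, limma adjusted p = 0.105) and was called higher by edgeR (adjusted p = 0.0411), and Bmpr1a had 19, 12 and 16 against 34 and 27 (log2 fold change -1.10, limma adjusted p = 0.111).

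Cytokine and growth factor signals also reach the Id genes through Egr and Stat5 factors. Of those 5 genes, 3 were tested and 0 were called, where 10.1% of all genes tested were, and their median log2 fold change was 0.15. That median was -0.33 without BcorWT library 2, 0.0045 without BcorΔE9-10 library 2 and 0.32 without BcorΔE9-10 library 3. Stat5b had 66.0, 72.3 and 64.5 CPM in BcorΔE9-10 and 47.6 and 59.1 CPM in BcorWT libraries (log2 fold change 0.34, 95% interval 0.04 to 0.65, limma adjusted p = 0.143). Stat5a had 45.7, 52.1 and 44.5 CPM against 59.4 and 52.9 CPM (log2 fold change -0.25, 95% interval -0.56 to 0.05, limma adjusted p = 0.289). Egr1 spanned 54.8 to 86.7 CPM in BcorΔE9-10 and 38.7 to 100 CPM in BcorWT libraries. It is also an immediate-early gene, and the 8 immediate-early genes summed to 996 to 1628 CPM against 716 to 1237 CPM. Of the 7 tested, Fos and Fosb were called higher, where 6.02% of all genes tested were. The part of handling in the Egr values was not tested.

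Of the 5 genes that set the life of Id proteins, all 5 were tested and 0 were called (10.1% of all genes tested), with a median log2 fold change of -0.16, or -0.046 without BcorΔE9-10 library 2 and -0.10 without BcorWT library 1. Usp1, the deubiquitinase that stabilises Id proteins, had 84.2, 86.2 and 89.1 CPM against 64.8 and 92.5 CPM. Its cofactor Wdr48 was at -0.16 on the log2 scale (limma adjusted p = 0.607). Cops5, a subunit of the signalosome, had 71.4, 67.2 and 68.8 CPM against 88.3 and 90.1 CPM (log2 fold change -0.37, 95% interval -0.63 to -0.10, limma adjusted p = 0.0729). Smurf2, a ubiquitin ligase, had 17.5, 13.5 and 20.6 CPM against 12.2 and 11.4 CPM (log2 fold change 0.54, 95% interval 0.04 to 1.05, limma adjusted p = 0.165). The groups did not overlap for 3 of the 5 genes, Cops5 and Fzr1 (53.4 to 58.1 against 63.4 and 65.5 CPM), lower in BcorΔE9-10 cells, and Smurf2, higher in them, arrangements that 20.3% and 22.6% of all genes tested showed.

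The genes most like each of the 6 across the 5 libraries were found among 6782 genes whose log2 CPM averaged at least 3, by the root mean square distance between log2 levels centred on their own mean. These distances describe 5 libraries and carry no test. For Tcf3 they were Ddx47, Noc4l and Mrpl20 (0.0209 to 0.0284), for Tcf4 Marc2 and Tcp11l2 (0.0198 and 0.0239) and for Tcf12 Wapl, Entr1 and Enkd1 (0.0502 to 0.0508). For Id1 they were Trmt6, Il10rb and Eprs (0.0213 to 0.0287) and for Id2 Egfl7, Caap1 and Rcc1 (0.0409 to 0.0511). The nearest genes to Id3, which rests on few counts, lay farther off, at 0.259 to 0.313 (Gskip, Mns1 and Dhrs3). No E protein or Id gene was among the nearest of another. With so few taken from 6782 genes, this says little about shared variation, and Id3 lay below the level required of a candidate.

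**Figure D5:**
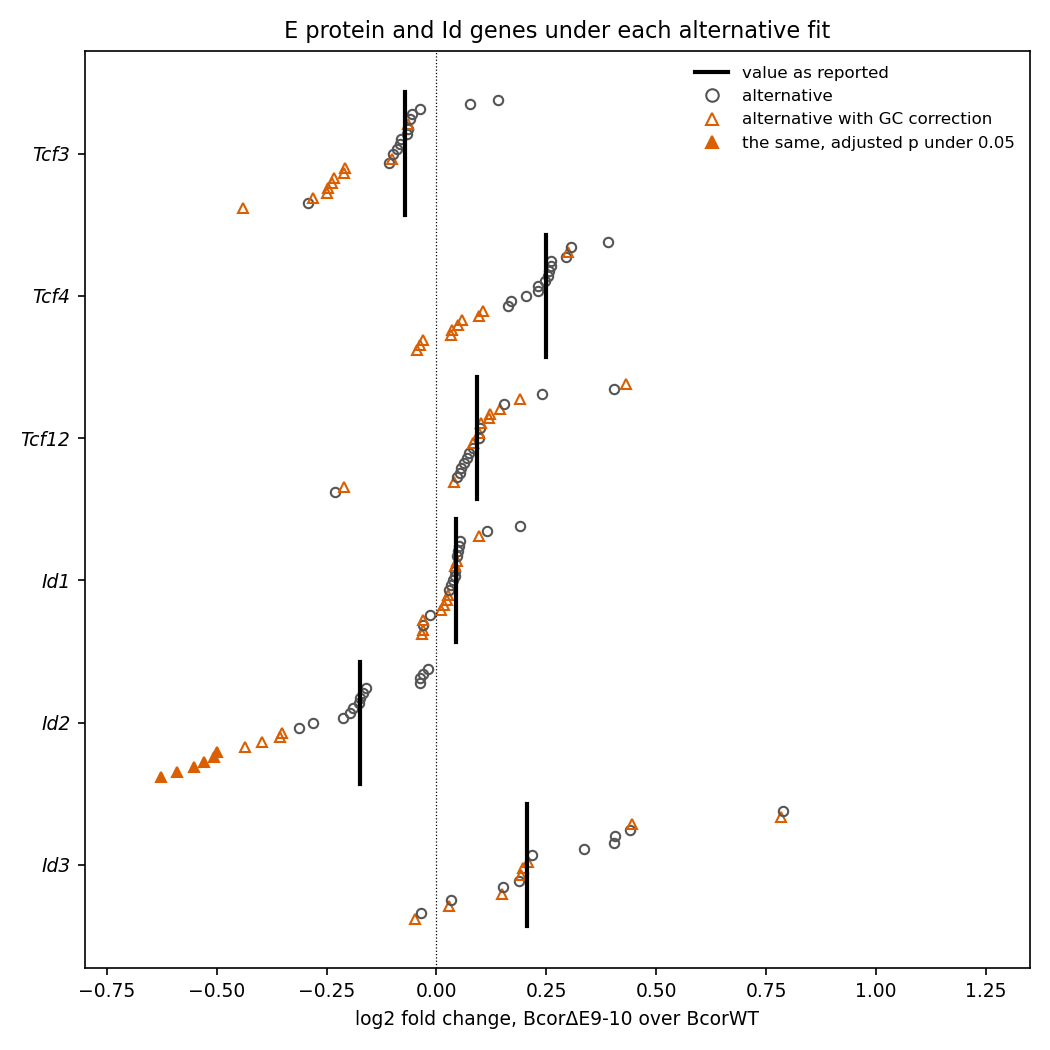
Log2 fold change of BcorΔE9-10 over BcorWT (horizontal axis) of each E protein and Id gene as reported (black bar) and under each alternative fit (circles, or triangles where GC content was corrected, stacked in order of value). A filled mark has an adjusted p under 0.05. Filled marks appear for Id2 alone, in 6 of its 10 corrected fits, and the marks of Tcf3, Tcf4, Tcf12, Id1 and Id3 lie on both sides of 0.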

How the data were processed

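Per the labels and the methods of the study, RNA of sorted KL cells was made into QuantSeq 3′ libraries, and reads were filtered, trimmed with cutadapt, aligned to mm10 with HISAT2 and counted with featureCounts of Subread (version 1.5.0-p3 in the submitters' processing notes). The authors deposited these counts as raw whole numbers, without normalisation. The options for strand and for reads that align to several places are not given in the sources used here. Besides the overlaps given above, Lyl1, Stat5a, Fzr1 and Cops5, among others, share exonic positions with a gene on the other strand. Of the 30-base words in the transcript end of Cops5, 11.8% occurred in another gene. Of 52550 gene identifiers in the table, 52403 were in GENCODE M21 (mm10) and as many were given a symbol, and start and end were identical for 95.24% of those in M21.

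Groups were taken from sample titles. Genes were kept with filterByExpr (edgeR 4.0.16, at least 10 counts and 15 in total), scaled by TMM and tested with limma (3.58.1) after voom in R (version 4.3.3), as the study's methods name limma, with Benjamini-Hochberg adjustment over 11766 genes, two-sided. Values are mean ± SD of CPM, and fold changes carry the standard error of the fit. Alternatives were edgeR's quasi-likelihood test, DESeq2 (version 1.42.0), RLE factors, total counts, other filters, sample quality weights, a replicate block, a correction for GC content (lowess, span 0.3, on the last 300 bases of the longest transcript) and leaving out each library. Further forms of the GC correction (span 0.6, 20 bins, the mean over coding transcripts, and without each library) were added after seeing the data. No pair of libraries of a group agreed within counting error (chi-square per gene of 5.94 to 11.1), and each counted as a replicate. The fits were tested on simulated data with known changes.

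The genes and lists were chosen with earlier results of these data known. From each list, the text names in full every called gene, at most the 4 with the largest change, and in a list without calls the 2 with the smallest p. Further genes in the report (such as Lyl1, Pax5, Ebf1, Cxcr4, Cbfa2t3, Bcl11a, Zeb2, Smad1, Smad5, Egr1, Usp1 and Wdr48) were picked after their values were seen, to describe a list. A few genes are not reported here.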

Additional observations from a re-analysis of the deposited data

How the results depend on the processing

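Id2 was the 1 gene of the 6 called under any of the alternatives run (23 for each gene, 18 for Id3), and always with GC correction. Its log2 fold change was then -0.51 (limma adjusted p = 0.0267), -0.50 with the wider span and -0.53 in bins. The signs of the others were not stable. With total counts alone, which moved the median of all genes to 0.149, Tcf3 was at 0.076. Under the replicate block Id1 was at -0.015, and under the block with GC correction Id1 was at -0.033, Tcf4 at -0.044 and Id2, not called, at -0.36. With GC content as a mean over coding transcripts Id1 was at -0.032. Without 1 library the values ranged from -0.29 to 0.14 for Tcf3, 0.16 to 0.31 for Tcf4, -0.23 to 0.40 for Tcf12, -0.031 to 0.12 for Id1, -0.31 to -0.037 for Id2 and -0.034 to 0.79 for Id3. Without 1 library and with GC correction they ranged from -0.44 to -0.064 for Tcf3, -0.038 to 0.11 for Tcf4, -0.21 to 0.43 for Tcf12, -0.030 to 0.097 for Id1 and -0.049 to 0.78 for Id3, and Id2 was called at -0.55, -0.59 and -0.63 without BcorΔE9-10 library 1 or 2 or BcorWT library 1, and not at -0.35 and -0.40 without the others. Where 1 BcorWT library was left out, the other was assumed to vary like the BcorΔE9-10 libraries.

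The count of called genes was 1189 (708 higher, 481 lower) and ranged from 558 to 1200 without 1 library, and from 482 to 1071 without 1 library and with GC correction. It was 558 and 482 without BcorWT library 1, 774 and 730 without BcorΔE9-10 library 2 and 723 and 629 without library 3, without and with that correction, and with total counts alone 1407 (1210 higher, 197 lower). List medians moved with total counts to 0.38 (cofactors), -0.23 (plasmacytoid dendritic cell genes), 0.29 (Egr and Stat5) and -0.017 (turnover). Without 1 library they ranged from 0.35 to 0.97 for partners, 0.18 to 0.32 for cofactors, 0.11 to 0.89 for lymphoid targets, -0.34 to -0.0056 for plasmacytoid dendritic cell genes, 0.038 to 0.21 for BMP genes, -0.33 to 0.32 for Egr and Stat5 and -0.22 to -0.046 for turnover. Of the named pathway genes, Ldb1 kept its call in all 23 alternatives. Kat2b lost its call in the 5 fits that combined GC correction with leaving out a library, Lmo2 in 1 of these, Tal1 in 4 alternatives, Lmo1 in 6, Notch1 in 9, Runx2 in 11 and Acvrl1 in 3. Stat5b was called with total counts alone (0.49, adjusted p = 0.0429) and Cops5 with GC content as a mean over coding transcripts (-0.45, adjusted p = 0.0308). The cause of these changes was not tested.

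Same-numbered libraries of the 2 groups share a number in their titles, and their deviations from the group mean correlated at 0.057 and 0.067. The deviations of the 2 BcorWT libraries mirror each other, so these values do not settle whether libraries were paired. The replicate block gave 1454 called genes and called none of the 6. Depth limits Id3, with 5 to 17 counts per library.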
